A study of Mus musculus with 56 samples.

Results

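The later part of the fed night was examined in visceral adipose tissue (VAT) of mice fed only at night, by comparing libraries taken at zeitgeber time (ZT) 24 with libraries taken at ZT16. The libraries were chosen by their labels alone, 4 at ZT16 and 4 at ZT24 of 56 in the series, and the 4 taken at ZT20 served as a midpoint for order. All mice were C57BL/6J females of 9 weeks on normal chow under 12 h of light and 12 h of dark, and had kept to nighttime-restricted feeding (NRF) or daytime-restricted feeding (DRF) for 7 days after 7 days of free feeding. ZT0 is lights on and ZT12 lights off, so that ZT16 and ZT20 lie in the dark phase and ZT24 at its end, and through that phase NRF mice had food and DRF mice did not. For 2 further comparisons, the same stretch of the fed day was taken from DRF mice at ZT4 and ZT12, and the same clock hours without food from DRF mice at ZT16 and ZT24, with 4 libraries in each of these groups. The libraries are bulk polyA RNA of a whole fat depot, so fewer cells of a type and less RNA per cell cannot be told apart.

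White adipocytes store fat as triglyceride when food is taken in and release it by lipolysis in fasting, and insulin is the main signal that switches them between these states. Each cell also runs a circadian clock in which ARNTL (BMAL1), paired with CLOCK or NPAS2, drives the Per, Cry and Nr1d genes, whose products in turn hold it back. In nocturnal rodents, glucocorticoid levels in blood peak around the onset of the dark phase and fall through the night.

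Levels are given below as CPM, recovered reads per M reads of the effective library size, and differences as log2(CPM + 1) with their standard errors (SE). A gene is called when its adjusted p is under 0.05 in limma, after Benjamini-Hochberg adjustment over all genes tested. The 8 libraries held 34.4 to 40.7 M (mega) recovered reads, so that 3 reads correspond to at most 0.0831 CPM. Adipocyte markers stood high in each library, with a summed level of 42987 to 51167 CPM at ZT16, 39367 to 44138 CPM at ZT20 and 33449.6 to 40561 CPM at ZT24. The ZT16 and ZT24 ranges of this sum did not overlap, 9 of its 10 genes were lower at ZT24, and 0 of the 10 were called in limma, 2 at an unadjusted p under 0.05 and 1 with limma voom. The sum of blood markers did not overlap either, at 300.3 to 429.6 CPM at ZT16 and 232.8 to 299.8 CPM at ZT24. Of 8 blood markers tested, 5 were lower and 3 higher in mean at ZT24. In limma 1 of the 8 rose and 0 fell. Without ZT24 replicate 4, 0 of 7 rose and 1 fell. The haemoglobin gene Hbb-bs was at -0.53 ± 0.14 (adjusted p = 0.0616). The part of these markers in the results below was not tested. ZT24 replicate 4 stood apart from the other 11 NRF libraries of ZT16, ZT20 and ZT24. Its liver markers summed to 1839 CPM against 34.8 to 67.2 CPM in those 11 and at most 90.6 CPM in the rest of the series. It held Alb, the plasma albumin of hepatocytes, at 1385 CPM against 15.1 to 38.0 CPM in those 11. Its skeletal muscle markers summed to 437 CPM against 46.1 to 53.7 CPM in the other ZT24 libraries, 34.2 to 246 CPM at ZT16 and up to 615 CPM in the rest of the series, so that muscle reads are not particular to it. Its mesothelial markers summed to 292 CPM against 569.5 to 671 CPM in the other ZT24 libraries. The comparison was therefore repeated without this library.

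Over the last 8 h of the fed night, more genes fell than rose. Among 15647 genes tested, 235 rose, which is 1.5% of genes tested, and 449 fell, which is 2.87%, so that 4.37% were called in all. Without adjustment, 3301 genes, or 21.1%, had a p under 0.05. The median difference over all genes was 0.01 on the log2 scale. A change of at least 1 on the log2 scale was found for 66 of the 449 falling and 25 of the 235 rising genes. Whether these shares differ was not tested. For 677 of the 684 called genes the ZT16 and ZT24 values did not overlap, against 2128 genes, or 13.6%, among all tested. Separation of the called genes follows in part from the test, which used these same values. Without ZT24 replicate 4, 140 of the 235 rising and 301 of the 449 falling genes were called again. They were among 176 rising (1.13% of 15556 tested), 340 falling (2.19%) and 3.32% called in all. The counts fell further without ZT16 replicate 1 (53 rising and 162 falling), ZT16 replicate 2 (57 and 137), ZT16 replicate 3 (117 and 234) or ZT24 replicate 3 (61 and 158). Scaling by total reads moved the share of rising among called genes from 34.4% to 52.1%, with 346 rising and 318 falling. The predominance of falling genes does not hold under that scaling.

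ZT20 lay closer to the end of the night than to ZT16 for most called genes. The ZT20 mean was nearer the ZT24 mean, within the range between the end points, for 155 of the 235 rising and 291 of the 449 falling genes. It was nearer the ZT16 mean for 66 and 118 of them, beyond ZT24 for 12 and 31, and on the far side of ZT16 for 2 and 9. This order is a description, because the genes were chosen by their end points.

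Clock genes changed in both directions over the late night. Of 19 clock genes and clock outputs tested, 8 fell and 3 rose, against 2.87% and 1.5% of all genes. The gene lists here and below were chosen with earlier results of these data known, so their counts are descriptions. The median difference was -0.58, and the same counts were found without ZT24 replicate 4. The genes that fell encode repressors of the clock (Per1, Per2, Per3, Cry2 and Nr1d2) and the PAR bZIP output factors (Dbp, Tef and Hlf), and the genes that rose were those of the positive limb, Npas2, Arntl and Clock. With each of the 8 libraries left out in turn, 7 to 9 of the list fell and 2 or 3 rose.

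Dbp, a PAR bZIP transcription factor and output of the clock (chr7:45705088-45710203 in GRCm38), was at 58.9, 66.8, 91.9 and 30.1 CPM at ZT16, at 8.50, 6.09, 11.5 and 7.17 CPM at ZT20 and at 7.09, 7.46, 3.46 and 3.03 CPM at ZT24. The lowest ZT16 library, replicate 4, was still above every later library. Most of the drop had been reached by ZT20, and the mean went on from 8.33 CPM at ZT20 to 5.26 CPM at ZT24. The difference between ZT24 and ZT16 was -3.31 ± 0.34 (SE; adjusted p = 0.00163). Its relatives Tef and Hlf fell by 2.41 and 1.71 on the log2 scale (adjusted p = 0.00393 and 0.00265), Tef from 197 to 346 CPM to 29.1 to 97.2 CPM and Hlf from 31.7 to 46.7 CPM to 8.82 to 17.7 CPM.

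Nr1d2, which encodes the repressor REV-ERBβ (chr14:18204054-18239127), was at 59.7, 65.8, 77.8 and 38.7 CPM at ZT16, at 9.73, 5.79, 7.79 and 7.62 CPM at ZT20 and at 8.14, 4.38, 5.65 and 5.45 CPM at ZT24. The groups were far apart, with a difference of -3.14 ± 0.21 (adjusted p = 0.000247). Its paralogue Nr1d1, which encodes REV-ERBα, was not called (-0.54 ± 0.17, adjusted p = 0.104), with 15.0, 16.2, 16.4 and 11.9 CPM at ZT16 and 10.7, 6.60, 12.1 and 10.8 CPM at ZT24. At ZT20 Nr1d1 was lower than in any library of either end point, at 4.41, 4.59, 4.82 and 4.11 CPM.

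The 3 Period genes, which encode repressors of the clock, all fell. Per3 was at 87.4, 76.2, 74.7 and 61.2 CPM at ZT16, 24.4, 17.2, 20.6 and 18.6 CPM at ZT20 and 20.6, 14.8, 9.28 and 8.27 CPM at ZT24, a difference of -2.49 ± 0.24 (adjusted p = 0.00102). Per2 was at 118, 109.7, 70.7 and 90.2 CPM, then at 49.0, 46.4, 45.9 and 35.7 CPM and then at 11.1, 27.6, 9.64 and 11.7 CPM, a difference of -2.71 ± 0.28 (adjusted p = 0.00165). At ZT20 the mean of Per2 had thus covered less of its fall than that of Per3. This is a description, because the courses were not compared in a test. Per1, which is also a direct target of the glucocorticoid receptor, was at 36.2, 50.2, 50.1 and 72.4 CPM at ZT16. It was at 22.8, 23.2, 33.6 and 33.1 CPM at ZT20 and at 23.3, 18.4, 13.6 and 14.5 CPM at ZT24. The difference between ZT24 and ZT16 was -1.52 ± 0.21 (adjusted p = 0.00486).

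Of the cryptochromes, the other repressors of the clock, Cry2 fell from 91.8 to 116 CPM to 61.6 to 83.5 CPM (-0.58 ± 0.11, adjusted p = 0.0183). Cry1 was at 25.3, 35.1, 23.1 and 45.1 CPM at ZT16 and 27.99, 31.7, 25.7 and 31.4 CPM at ZT24 and was not called (-0.09 ± 0.18, adjusted p = 0.826). In all 4 ZT20 libraries Cry1 stood higher than at either end point, at 54.6, 65.3, 52.9 and 48.0 CPM.

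The positive limb rose. Npas2, the partner of ARNTL (chr1:39193731-39363236), was at 0.653, 0.547, 0.351 and 1.72 CPM at ZT16, at 9.42, 11.3, 9.00 and 9.44 CPM at ZT20 and at 17.3, 9.00, 14.8 and 16.4 CPM at ZT24, a difference of 3.09 ± 0.24 (adjusted p = 0.000425). Arntl, which encodes BMAL1, was at 5.20, 8.45, 5.34 and 22.7 CPM at ZT16, at 30.9, 36.3, 33.8 and 36.6 CPM at ZT20 and at 40.3, 40.3, 41.0 and 40.1 CPM at ZT24, a difference of 2.10 ± 0.35 (adjusted p = 0.0125). The ZT24 libraries were within 1 CPM of each other for Arntl, whereas ZT16 replicate 4 was the nearest of its group to ZT20 for Arntl, Npas2, Dbp and Nr1d2. Clock rose from 56.4 to 80.8 CPM to 96.2 to 112 CPM (0.65 ± 0.12, adjusted p = 0.0168). Nfil3, a repressor that competes with DBP, and Bhlhe40, a repressor that also answers to feeding, were not called (adjusted p = 0.512 and 0.68), with Bhlhe40 at 226, 173, 33.0 and 188 CPM at ZT16 and 32.6, 159.5, 123 and 86.8 CPM at ZT24.

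**Figure D1:**
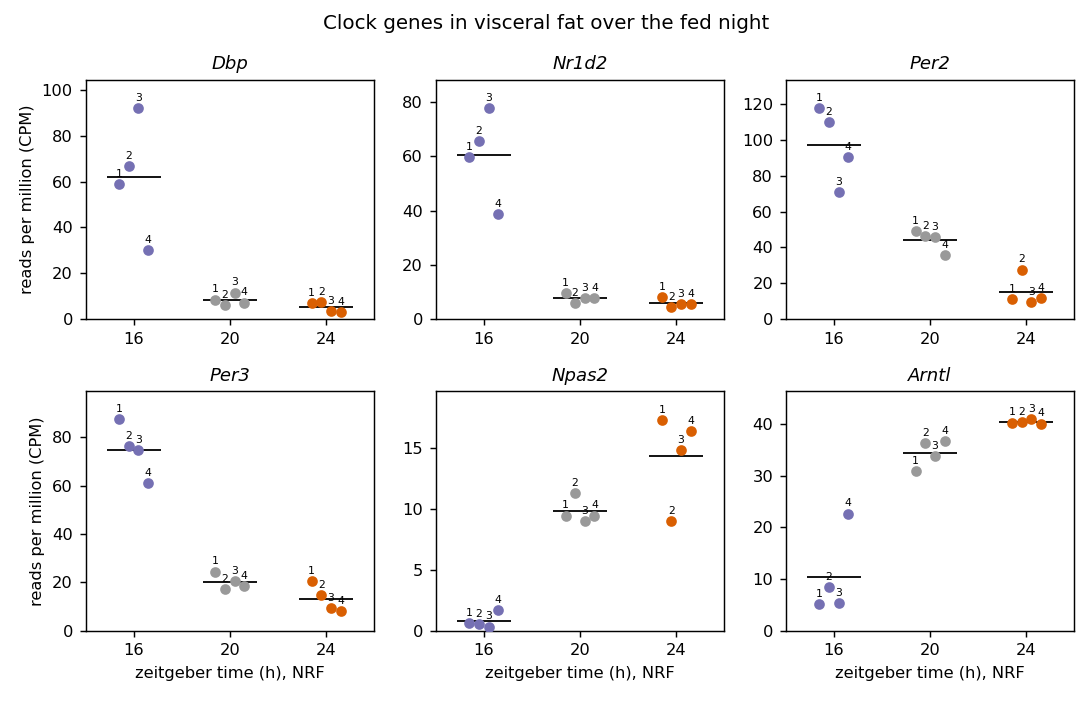
Level in CPM of 6 clock genes in each NRF library at ZT16, ZT20 and ZT24 (points, numbered by replicate), with the group mean as a line, on axes from 0. Dbp, Nr1d2, Per2 and Per3 have no overlap between ZT16 and the later times, and Npas2 and Arntl rise over the same hours.

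Wee1, which encodes a kinase that holds back CDK1 and is a known clock output, fell with them, from 17.8, 18.6, 21.3 and 15.97 CPM to 6.27, 7.80, 5.10 and 4.07 CPM (-1.53 ± 0.16, adjusted p = 0.00169). Gm45819, a transcript listed directly before Wee1 on the same strand of chromosome 7, fell from 4.98 to 6.29 CPM to 0.230 to 1.12 CPM (-1.96 ± 0.17, adjusted p = 0.000747), and reads of neighbouring transcripts may be shared. Usp2, a deubiquitinase with clock-driven expression, was at 55.0, 65.3, 39.6 and 47.6 CPM at ZT16 and at 9.66, 20.1, 9.59 and 9.15 CPM at ZT24 (-2.06 ± 0.24, adjusted p = 0.00225).

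The windows of 250 bases before the annotated starts of the called clock and glucocorticoid-responsive genes were searched for 4 short motifs on both strands. Sequences and start sites are those of RefSeq for GRCm38.p6, and 10 of the 11 called clock genes had at least 1 of 15 windows. The E-box CACGTG, the site bound by ARNTL with its partners, was found in windows of Per1 and Tef, against 6.02% of 32851 windows of the same length. The D-box TTATGTAA, the site of DBP, TEF and HLF, was found only for Per3 among the called clock genes, with 2 matches in 1 window, against 0.819% of all windows. The ROR element AGGTCA was found for Clock, Nr1d2 and Per1, against 14.0% of all windows. Of the 9 called glucocorticoid-responsive genes, 8 had at least 1 of 17 windows, of which those of Dusp1, Fkbp5, Per1 and Sgk1 held the E-box. The glucocorticoid response element, AGAACA followed after 3 bases of any kind by TGTTCT, was found in a window of Sgk1, 1 of the 3 windows of all 32851 that hold it. A gene is named for a match in any of its windows, whereas the shares are of single windows, so they are unlike measures. Matches are descriptions of these windows, and other parts of the genes were not searched. The windows of 4 genes are shown, with 1 kind of motif in capitals in each, the E-box for Per1 and Fkbp5, the D-box for Per3 and the glucocorticoid response element for Sgk1. The matches in capitals begin 166 bases before the start for Per1, 205 and 158 for Per3, 169 for Fkbp5 and 189 for Sgk1, whose E-box, left in lower case, begins 246 bases before the start. The windows are chr11:69098699-69098948 on the plus strand for Per1, chr4:151044666-151044915 on the minus strand for Per3, chr17:28486150-28486399 on the minus strand for Fkbp5 and chr10:21993640-21993889 on the plus strand for Sgk1.
Per1: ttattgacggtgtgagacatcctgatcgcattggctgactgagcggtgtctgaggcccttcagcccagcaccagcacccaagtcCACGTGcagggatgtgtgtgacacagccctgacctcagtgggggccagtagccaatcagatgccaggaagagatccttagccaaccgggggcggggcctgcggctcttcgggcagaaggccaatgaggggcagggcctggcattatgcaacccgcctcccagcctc
Per3: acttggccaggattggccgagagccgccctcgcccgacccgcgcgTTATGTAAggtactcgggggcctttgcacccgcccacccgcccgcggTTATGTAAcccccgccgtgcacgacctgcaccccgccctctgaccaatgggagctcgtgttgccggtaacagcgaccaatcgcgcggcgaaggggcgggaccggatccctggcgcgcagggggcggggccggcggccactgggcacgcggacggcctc
Fkbp5: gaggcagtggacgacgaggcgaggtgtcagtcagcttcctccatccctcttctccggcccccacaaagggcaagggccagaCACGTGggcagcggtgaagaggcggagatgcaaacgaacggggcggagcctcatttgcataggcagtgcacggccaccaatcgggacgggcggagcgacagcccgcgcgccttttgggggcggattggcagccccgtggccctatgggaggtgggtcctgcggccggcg
Sgk1: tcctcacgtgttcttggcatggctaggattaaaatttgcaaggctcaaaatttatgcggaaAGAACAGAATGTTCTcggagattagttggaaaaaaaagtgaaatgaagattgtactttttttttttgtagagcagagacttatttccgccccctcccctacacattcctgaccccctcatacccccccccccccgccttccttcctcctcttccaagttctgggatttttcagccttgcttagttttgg

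Of 15 genes that answer to glucocorticoids, 9 fell, 6 were not called and none rose, where 2.87% of all genes fell. As the list was chosen with earlier results of these data known, this count is a description. Per1, given above, is a member of both this list and the clock list and is counted in each. All 15 had a lower mean at ZT24, and the median difference was -0.79. Without ZT24 replicate 4, 6 of the 15 fell, the calls of Mt1, Sgk1 and Errfi1 being lost (adjusted p = 0.0746, 0.0653 and 0.0519). Over the other 7 single libraries left out, the count ranged from 4 to 8, and it was 4 without ZT16 replicate 2 or ZT24 replicate 3. Nr3c1, which encodes the glucocorticoid receptor, was at 206, 236, 264 and 236 CPM at ZT16 and 241, 223, 218 and 193 CPM at ZT24 and was not called (-0.10 ± 0.10, adjusted p = 0.6).

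Fkbp5, a co-chaperone that dampens the receptor and is among its strongest targets (chr17:28399094-28517527), was at 132, 165, 73.7 and 80.4 CPM at ZT16, at 33.7, 37.5, 35.6 and 19.2 CPM at ZT20 and at 19.7, 19.9, 20.1 and 16.6 CPM at ZT24. The later groups lay below the lowest ZT16 library, and the difference was -2.43 ± 0.23 (adjusted p = 0.000839). Tsc22d3, which encodes the anti-inflammatory leucine zipper protein GILZ, went from 177, 262, 186 and 197 CPM over 96.8, 79.4, 97.0 and 91.6 CPM to 51.1, 73.4, 44.3 and 43.0 CPM (-1.95 ± 0.17, adjusted p = 0.000747). Klf9, a Krüppel-like transcription factor, was at 132, 156, 138 and 136 CPM, then at 76.2, 67.8, 94.9 and 78.0 CPM and then at 84.2, 81.9, 65.1 and 71.5 CPM (-0.89 ± 0.10, adjusted p = 0.00196), so that its fall was complete at ZT20.

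Of the remaining called members, Dusp1, a phosphatase of MAP kinases, fell from 53.3 to 81.3 CPM to 33.5 to 42.7 CPM (-0.79 ± 0.14, adjusted p = 0.0165), and Cebpd, a transcription factor of early adipogenesis, from 14.9 to 25.5 CPM to 10.1 to 13.9 CPM (-0.73 ± 0.16, adjusted p = 0.0319). Mt1, a metallothionein that binds zinc, fell from 89.3 to 163 CPM to 42.0 to 86.9 CPM (-1.04 ± 0.25, adjusted p = 0.044). Sgk1, a kinase of salt transport and cell survival, was at 42.4, 34.6, 43.6 and 40.1 CPM at ZT16 and at 27.0, 34.4, 24.6 and 30.1 CPM at ZT24 (-0.46 ± 0.11, adjusted p = 0.0496), just under the threshold and with groups only narrowly apart. Errfi1, a feedback inhibitor of the EGF receptor, had a difference of -0.40 ± 0.10 (adjusted p = 0.0475).

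Each of 3 stress lists had 3 falling members, where 2.87% of all genes fell. Of 17 heat shock and cold-inducible genes 3 fell and none rose (median -0.11), of 16 amino acid stress genes 3 fell and none rose (median -0.30), and of 20 immediate early genes 3 fell and none rose (median -0.22). With single libraries left out, the amino acid stress count ranged from 0 to 4 and was 0 without ZT16 replicate 1, 2 or 3. The immediate early count ranged from 0 to 3 and was 0 without ZT16 replicate 1 or 2 or ZT24 replicate 3.

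Hspa1b and Hspa1a encode the inducible chaperone HSP70 and are near-identical neighbours on chromosome 17, so that the split of reads between them is uncertain. Hspa1b was at 37.1, 40.3, 31.2 and 27.5 CPM at ZT16, at 22.2, 17.9, 16.9 and 15.4 CPM at ZT20 and at 14.2, 15.3, 14.4 and 11.8 CPM at ZT24 (-1.22 ± 0.13, adjusted p = 0.00165). Hspa1a fell from 11.3 to 18.2 CPM to 3.63 to 5.69 CPM (-1.47 ± 0.16, adjusted p = 0.00165). Hspb1, which encodes the small chaperone HSP27, took a later course, with 149, 171, 105 and 129.7 CPM at ZT16, 137, 156, 143 and 115 CPM at ZT20 and 86.8, 84.1, 81.3 and 88.4 CPM at ZT24 (-0.68 ± 0.13, adjusted p = 0.021; adjusted p up to 0.0723, without ZT16 replicate 1). With ZT0 mice in place of ZT24 mice it was not called (-0.38 ± 0.15, adjusted p = 0.15). Between ZT16 and ZT24 its fall lay wholly after ZT20. Hsp90aa1, the stress-inducible HSP90, was not called (0.09 ± 0.15, adjusted p = 0.778) and was higher at ZT20, with 487 to 624 CPM, than in any ZT16 library, and Cirbp, the cold-inducible RNA-binding protein, was not called either (adjusted p = 0.367).

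Among targets of ATF4, the transcription factor of the amino acid response, Chac1, which degrades glutathione, fell from 20.2, 14.6, 14.5 and 12.1 CPM to 3.995, 7.82, 9.17 and 6.18 CPM (-1.09 ± 0.22, adjusted p = 0.0235; adjusted p up to 0.0736, without ZT16 replicate 1). Phgdh, the first enzyme of serine synthesis, fell from 291, 298, 298 and 267 CPM to 200.2, 229, 149.9 and 178 CPM (-0.62 ± 0.12, adjusted p = 0.0227; adjusted p up to 0.0819, without ZT16 replicate 2). With ZT0 mice in place of ZT24 mice Phgdh was not called (-0.28 ± 0.21, adjusted p = 0.442). Trib3, a pseudokinase that restrains AKT, fell from 9.44 to 12.1 CPM to 4.99 to 7.65 CPM (-0.62 ± 0.14, adjusted p = 0.0339; adjusted p up to 0.102, without ZT16 replicate 1). Atf4 itself and Ddit3, which encodes CHOP, were not called (adjusted p = 0.545 and 0.656). Of 19 endoplasmic reticulum chaperones and their partners, 1 fell, near the 2.87% of all genes, and none rose. This was Herpud1, a component of the degradation complex, which fell from 79.3, 84.3, 78.9 and 64.6 CPM to 39.1, 53.1, 46.4 and 44.9 CPM (-0.73 ± 0.11, adjusted p = 0.00725). Hspa5, which encodes the chaperone BiP, had a difference of 0.01 ± 0.10 (adjusted p = 0.959).

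The immediate early genes that fell were Atf3, a stress-induced repressor, Klf2, a Krüppel-like factor known from endothelium, and Jund, an AP-1 subunit. Atf3 went from 16.4, 18.8, 15.1 and 13.2 CPM to 5.49, 11.5, 8.95 and 6.85 CPM (-0.91 ± 0.19, adjusted p = 0.0292; adjusted p up to 0.101, without ZT16 replicate 2). Klf2 went from 73.5 to 103 CPM to 41.7 to 63.9 CPM (-0.65 ± 0.15, adjusted p = 0.0369; adjusted p up to 0.115, without ZT16 replicate 2) and Jund from 44.7 to 71.8 CPM to 23.6 to 42.9 CPM (-0.78 ± 0.19, adjusted p = 0.0465; adjusted p up to 0.139, without ZT16 replicate 2). With ZT0 mice in place of ZT24 mice, Jund was not called (-0.14 ± 0.18, adjusted p = 0.67), nor was Klf2 (adjusted p = 0.0833). The classical members Fos and Egr1 were not called, with Fos at 4.43, 7.79, 5.77 and 5.22 CPM at ZT16 and 4.20, 3.08, 5.29 and 14.1 CPM at ZT24, the highest value being that of ZT24 replicate 4.

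**Figure D2:**
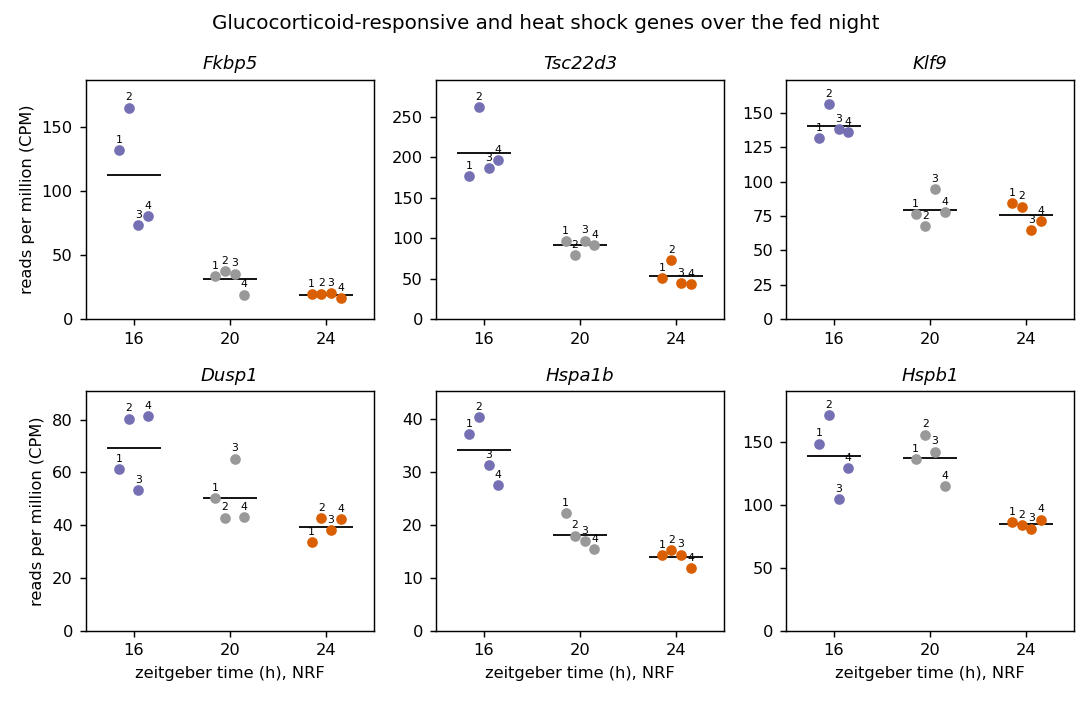
Level in CPM of 4 glucocorticoid-responsive genes (Fkbp5, Tsc22d3, Klf9, Dusp1) and 2 heat shock genes (Hspa1b, Hspb1) in each NRF library at ZT16, ZT20 and ZT24 (points, numbered by replicate), with the group mean as a line, on axes from 0. Fkbp5, Tsc22d3, Klf9 and Hspa1b are already low at ZT20, whereas Hspb1 is unchanged in mean at ZT20 and lower in each ZT24 library than in each ZT16 library.

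In each of 3 lists on fat storage, fat release and fasting 2 genes fell, where 2.87% of all genes fell. Of 11 triglyceride synthesis genes, 2 fell and none rose (median -0.10). Of 14 genes of lipolysis and the lipid droplet, 2 fell and none rose (median -0.16), a count that was 0 without any 1 of 5 single libraries. Of 18 fasting-responsive genes, 2 fell and none rose (median -0.19). The summed adipocyte markers were lower over the same hours, as given above, and their part in these changes was not tested. That sum includes Lipe, Plin1, Cidec, Lep and Adipoq, which are reported below, so it is not independent of them.

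Dgat1, which catalyses the last step of triglyceride synthesis (chr15:76502015-76511953), was at 306, 371, 333 and 329 CPM at ZT16, at 243, 222, 229 and 225 CPM at ZT20 and at 205, 223, 219 and 185 CPM at ZT24. No ZT24 library reached the lowest ZT16 library, and the difference was -0.68 ± 0.09 (adjusted p = 0.00416). Gpat4, which catalyses the first step in the endoplasmic reticulum, was at 182, 181, 167 and 143 CPM, then at 108, 93.8, 103 and 95.6 CPM and then at 93.5, 113, 95.0 and 87.9 CPM (-0.78 ± 0.10, adjusted p = 0.00411). The other enzymes of the same steps were not called, Dgat2 with -0.07 ± 0.27 (adjusted p = 0.912) and Gpam, the mitochondrial acyltransferase, with -0.10 ± 0.18 (adjusted p = 0.811). Both calls held with each library left out in turn.

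Of the lipolysis genes, Pnpla2, which encodes adipose triglyceride lipase, was at 2826, 3015, 3037 and 2812 CPM at ZT16 and at 1836, 2089.9, 1799.8 and 1808 CPM at ZT24 (-0.64 ± 0.14, adjusted p = 0.0316). Its call was lost without ZT24 replicate 4 (adjusted p = 0.0722) and without any other single library except ZT24 replicate 2 (adjusted p up to 0.107, without ZT16 replicate 2). Plin4, a coat protein of lipid droplets, fell from 1725, 1424, 1495 and 1275 CPM to 909, 967, 889.9 and 1155 CPM (-0.59 ± 0.14, adjusted p = 0.0422; adjusted p up to 0.121, without ZT24 replicate 3). With ZT0 mice in place of ZT24 mice neither Pnpla2 nor Plin4 was called (adjusted p = 0.0888 and 0.144). Lipe, which encodes hormone-sensitive lipase, and Plin1, the main droplet coat protein, were not called (-0.32 ± 0.12 and -0.18 ± 0.13, adjusted p = 0.172 and 0.462). Cidec, which fuses lipid droplets, was at 3218, 3235, 4409 and 3033 CPM at ZT16 and 2128, 2446, 1555 and 1180.0 CPM at ZT24, and missed the threshold (-0.97 ± 0.24, adjusted p = 0.0527). The lipolysis count was 0 without ZT16 replicate 1, 2 or 3 or ZT24 replicate 1 or 3.

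Of the fasting-responsive genes, Klf15, a transcription factor of amino acid catabolism that also answers to glucocorticoids, fell from 69.1, 102, 70.1 and 84.8 CPM to 45.9, 51.3, 47.1 and 41.3 CPM (-0.79 ± 0.13, adjusted p = 0.0106). Pdk2, a kinase that closes pyruvate dehydrogenase, fell from 116 to 187 CPM to 65.7 to 101 CPM (-0.78 ± 0.16, adjusted p = 0.0247; adjusted p up to 0.0745, without ZT16 replicate 2). Its relative Pdk4 was at 39.9, 45.1, 111 and 44.7 CPM at ZT16 and 67.6, 47.9, 52.5 and 51.2 CPM at ZT24 and was not called (-0.01 ± 0.28, adjusted p = 0.989). Pck1, the enzyme of glyceroneogenesis, spread from 99.4 to 603 CPM at ZT16 and from 58.0 to 411 CPM at ZT24, with 39.4 to 73.3 CPM at ZT20 (adjusted p = 0.599 for the end points). For Pdk4 and Pck1 the highest ZT16 library was replicate 3, which was also highest for Irs2 and lowest for Bhlhe40. Angptl4, an inhibitor of lipoprotein lipase, was not called (adjusted p = 0.397).

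Among secreted factors of fat, 2 of 11 adipokine genes fell, against 2.87% of all genes, and none rose (median -0.24), and both calls held with each library left out in turn. Nrg4, a secreted ligand of the EGF family (chr9:55220222-55326844), was at 140.1, 155, 132 and 127 CPM at ZT16, at 99.9, 75.6, 83.7 and 78.7 CPM at ZT20 and at 59.7, 58.1, 67.4 and 46.1 CPM at ZT24, a difference of -1.26 ± 0.12 (adjusted p = 0.000839). Nampt, the rate-limiting enzyme of NAD salvage and a clock output, fell from 229.5, 234, 222 and 215 CPM to 125, 169, 138 and 115 CPM (-0.73 ± 0.11, adjusted p = 0.0081). Lep, which encodes leptin, and Adipoq, which encodes adiponectin, were not called (-0.49 ± 0.27 and -0.34 ± 0.19, adjusted p = 0.332 and 0.351), with Lep ranging from 438 to 1227 CPM at ZT24.

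**Figure D3:**
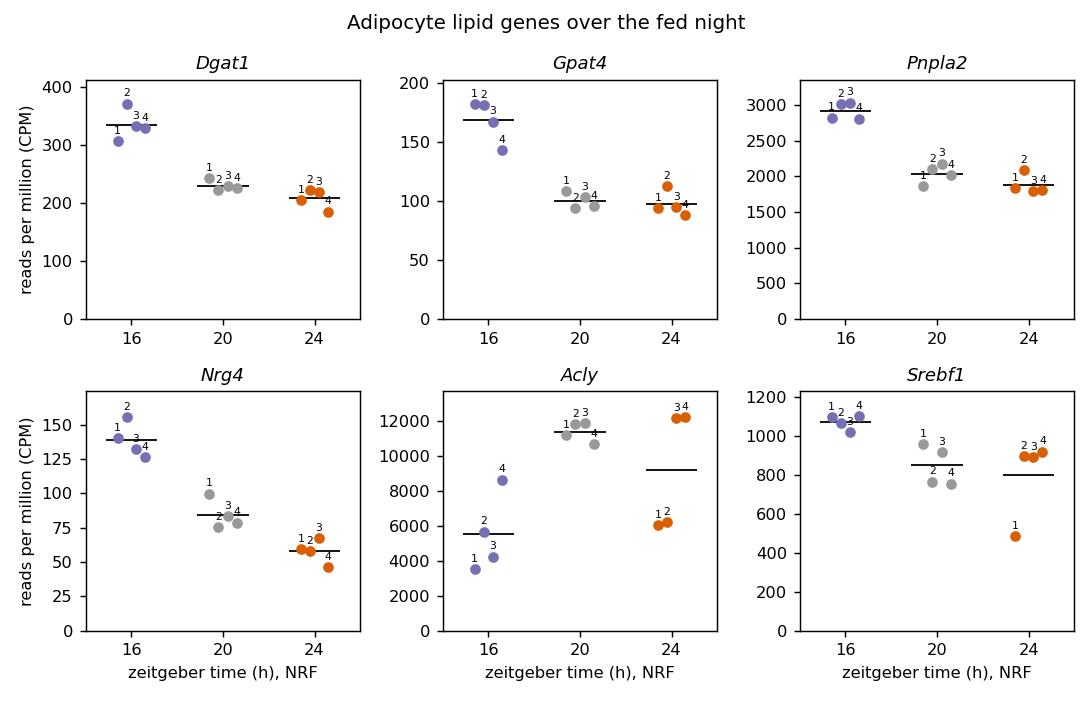
Level in CPM of Dgat1, Gpat4, Pnpla2, Nrg4, Acly and Srebf1 in each NRF library at ZT16, ZT20 and ZT24 (points, numbered by replicate), with the group mean as a line, on axes from 0. The first 4 genes are lower in each ZT24 library than in each ZT16 library, the ZT24 values of Acly fall into a low and a high pair, and Srebf1 is lowest in ZT24 replicate 1.

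The lipogenic genes spread widely between mice and did not pass the test. Of 16 genes of de novo lipogenesis 0 were called in limma or limma voom and 5 had an unadjusted p under 0.05, against 21.1% of all genes (median 0.31, 11 of 16 higher in mean at ZT24). Acly, which makes cytosolic acetyl-CoA from citrate, was at 3541, 5674, 4243 and 8654 CPM at ZT16, at 11194, 11832, 11876 and 10678 CPM at ZT20 and at 6066, 6239.9, 12170.2 and 12212 CPM at ZT24 (0.73 ± 0.37, adjusted p = 0.285). The ZT16 and ZT24 libraries overlapped, and the 4 ZT20 libraries lay close together between the low and the high pair of ZT24. Fasn, fatty acid synthase, and Acaca, acetyl-CoA carboxylase, had differences of 0.27 ± 0.41 and 0.57 ± 0.31 (adjusted p = 0.756 and 0.323), and the elongase Elovl6 had 0.81 ± 0.39 (adjusted p = 0.267). For Acly, Acaca and Elovl6, ZT24 replicates 3 and 4 were above replicates 1 and 2, and ZT16 replicates 2 and 4 above 1 and 3. Srebf1, the transcription factor of lipogenesis under insulin, was at 1095, 1067, 1021 and 1104 CPM at ZT16 and at 488, 899, 892 and 920.1 CPM at ZT24, with no overlap but a wide spread (-0.47 ± 0.19, adjusted p = 0.202).

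Sterol genes were mostly higher in mean at ZT24 without passing the test. Of 24 genes of sterol synthesis and uptake, 23 were higher in mean at ZT24, none rose and 1 fell. Of these 24 genes 12 had an unadjusted p under 0.05, against 21.1% of all genes. The median difference was 0.39, which was 0.25 without ZT24 replicate 4. Without ZT24 replicate 1, 3 members rose. Hmgcs1, an early enzyme of the pathway, was at 106, 134, 191 and 199.6 CPM at ZT16 and at 209.9, 222, 324 and 322 CPM at ZT24 (0.79 ± 0.22, adjusted p = 0.0741), and Sqle and Insig1 had adjusted p of 0.47 and 0.548. Fdft1, squalene synthase, was the exception, with 144, 172, 177 and 155 CPM at ZT16 and 91.8, 122, 115 and 98.1 CPM at ZT24 (-0.60 ± 0.11, adjusted p = 0.0168; adjusted p up to 0.0647, without ZT16 replicate 2).

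Glucose genes showed little that passed the test. Of 19 gene entries of glucose uptake and glycolysis, 14 of glycogen metabolism and 9 of the pentose phosphate pathway, 0 were called in limma or limma voom and 2, 2 and 1 had an unadjusted p under 0.05, no list exceeding the 21.1% of all genes, with medians of 0.12, 0.14 and 0.23. Gys2, a glycogen synthase, was at 12.8, 18.5, 11.5 and 22.4 CPM at ZT16 and 28.8, 21.8, 44.6 and 64.2 CPM at ZT24 (1.17 ± 0.31, adjusted p = 0.0647). Slc2a4, the insulin-regulated glucose carrier GLUT4, had a difference of -0.12 ± 0.19 (adjusted p = 0.78), Hk2, hexokinase, -0.21 ± 0.41 (adjusted p = 0.819), and G6pdx, which opens the pentose phosphate pathway, 0.51 ± 0.24 (adjusted p = 0.247). Pfkfb3, an activator of glycolysis, had -0.67 ± 0.21 (adjusted p = 0.103).

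Of 17 genes of insulin and IGF signalling, 1 fell, near the 2.87% of all genes, and none rose. This was Igfbp4, which binds IGFs, from 841, 764, 904 and 728 CPM to 617, 611, 592 and 511 CPM (-0.47 ± 0.11, adjusted p = 0.043), a call lost without ZT24 replicate 4 (adjusted p = 0.092) and without each of the other 7 libraries (adjusted p up to 0.112, without ZT16 replicate 1). It was not called with ZT0 mice in place of ZT24 mice either (-0.24 ± 0.12, adjusted p = 0.249). Igf1 was at 242, 259, 336 and 331 CPM at ZT16 and at 398, 372, 696 and 546 CPM at ZT24, with no overlap (0.75 ± 0.20, adjusted p = 0.0639). Insr, the insulin receptor, and Irs2, its substrate, were not called (-0.29 ± 0.09 and -0.42 ± 0.29, adjusted p = 0.0952 and 0.458).

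Of 17 nutrient and hormone receptors, 2 rose, 1 fell and 14 were not called (median 0.02), against 1.5% rising and 2.87% falling of all genes, and the rising count was 1 without ZT16 replicate 2 or 3 or ZT24 replicate 3. Klb, the co-receptor of FGF21, rose from 33.4, 48.9, 52.4 and 74.6 CPM over 80.1, 82.4, 96.8 and 84.0 CPM to 127, 104, 119.8 and 86.4 CPM (1.09 ± 0.21, adjusted p = 0.0205; adjusted p up to 0.0728, without ZT16 replicate 2). Tshr, the thyrotropin receptor, rose from 63.6, 94.3, 82.2 and 136 CPM to 189.6, 188, 205 and 197 CPM (1.10 ± 0.18, adjusted p = 0.0125), having reached 173, 195, 198 and 194 CPM at ZT20. Adora1, the adenosine receptor that restrains lipolysis, fell from 112, 143, 157 and 113 CPM to 83.8, 75.6, 56.7 and 69.4 CPM (-0.87 ± 0.14, adjusted p = 0.0109).

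The 10 largest rises by the naming rule included 3 metalloproteases of the matrix. This is a description, because no list of metalloproteases was tested. Adamts16 and Adamts4, secreted metalloproteases of the matrix, rose from 1.67 to 2.90 CPM to 9.40 to 14.5 CPM (1.88 ± 0.17, adjusted p = 0.000747) and from 1.78 to 2.66 CPM to 5.95 to 10.5 CPM (1.55 ± 0.16, adjusted p = 0.00165). Mmp9, a gelatinase, rose from 17.0, 11.8, 20.6 and 14.0 CPM to 43.2, 39.0, 36.7 and 28.3 CPM (1.18 ± 0.17, adjusted p = 0.00661), and Spon2, a secreted matrix protein, from 24.5, 18.2, 15.6 and 17.3 CPM to 41.9, 43.0, 43.6 and 52.4 CPM (1.23 ± 0.13, adjusted p = 0.00174). Of 23 genes of the collagen and matrix list 1 rose and 1 fell (median 0.16), near the 1.5% and 2.87% of all genes. With single libraries left out, the rising count ranged from 1 to 4 and the falling count stayed at 1. The rising count was 4 without ZT24 replicate 2. Fbn1, which encodes fibrillin and the hormone asprosin, was at 132, 116, 143 and 114 CPM at ZT16 and at 377, 226, 235 and 278 CPM at ZT24 (1.11 ± 0.15, adjusted p = 0.00486). Timp3, an inhibitor of metalloproteases, fell from 268, 265, 235 and 229 CPM to 159, 141, 141 and 141 CPM (-0.77 ± 0.08, adjusted p = 0.00196). Col1a1 was not called (0.16 ± 0.20, adjusted p = 0.703).

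Klhl13, a substrate adaptor of the ubiquitin ligase CUL3 (chrX:23219271-23365082), rose evenly, with 12.9, 14.9, 15.8 and 15.9 CPM at ZT16, 19.7, 23.9, 26.1 and 30.8 CPM at ZT20 and 42.4, 42.3, 40.3 and 33.7 CPM at ZT24 (1.35 ± 0.10, adjusted p = 0.000308). The 3 time points did not overlap. Dtx4, a ubiquitin ligase, was at 22.7, 31.6, 25.7 and 78.1 CPM at ZT16, with replicate 4 far above the others, and at 116, 97.4, 125 and 135 CPM at ZT24 (1.73 ± 0.32, adjusted p = 0.0176; adjusted p up to 0.0647, without ZT16 replicate 2). Glrx, glutaredoxin, rose from 7.14 to 15.3 CPM to 22.8 to 31.4 CPM (1.28 ± 0.19, adjusted p = 0.00672), and Tstd3, a small rhodanese-like protein, from 4.67 to 6.42 CPM to 9.34 to 22.8 CPM (1.18 ± 0.24, adjusted p = 0.025; adjusted p up to 0.0847, without ZT24 replicate 3).

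Outside the clock and glucocorticoid lists, Crtac1 and Nnat were among the 10 largest falls. Crtac1, a secreted matrix protein of cartilage, was at 11.1, 15.6, 15.7 and 12.8 CPM at ZT16 and at 1.65, 0.496, 1.081 and 3.40 CPM at ZT24 (-2.58 ± 0.28, adjusted p = 0.00177). Nnat, the imprinted membrane protein neuronatin, was at 422, 326, 245 and 185 CPM at ZT16, at a widely spread 33.7, 80.8, 215 and 111 CPM at ZT20 and at 79.7, 88.7, 39.6 and 52.6 CPM at ZT24 (-2.16 ± 0.29, adjusted p = 0.00413). With the ZT0 mice of NRF in place of the ZT24 mice its fall was not called (-1.23 ± 0.65, adjusted p = 0.28).

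Of 20 aminoacyl-tRNA synthetases 1 rose (median 0.09), where 1.5% of all genes rose. This was Lars, the leucyl-tRNA synthetase, with 37.0, 37.8, 42.8 and 38.3 CPM at ZT16 and 49.7, 45.1, 51.3 and 49.0 CPM at ZT24 (0.32 ± 0.08, adjusted p = 0.0452; adjusted p up to 0.137, without ZT16 replicate 2), a call also lost with ZT0 mice in place of ZT24 mice (adjusted p = 0.0758). Of 24 ribosome biogenesis genes, 21 proliferation genes and 19 genes of fatty acid oxidation and the respiratory chain, 0 were called in limma or limma voom and 2, 4 and 3 had an unadjusted p under 0.05, each below the 21.1% of all genes, with medians of 0.02, 0.17 and -0.01. Of the 21 proliferation genes, 18 were higher in mean at ZT24. Ucp1, the uncoupling protein of brown fat, was at 1.52, 0.738, 13.8 and 2.45 CPM at ZT16 and 5.44, 8.95, 0.499 and 0.391 CPM at ZT24 (adjusted p = 0.923).

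**Figure D4:**
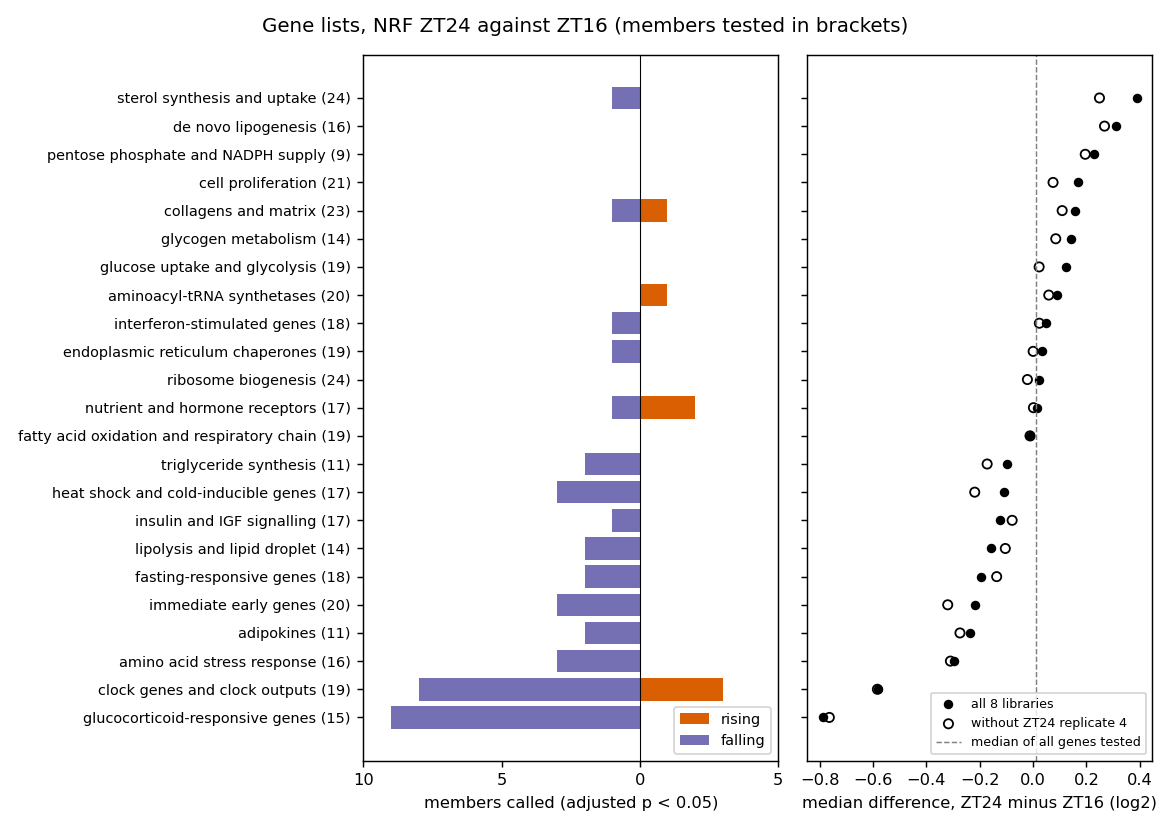
Left, number of members called rising or falling between ZT16 and ZT24 in each of 23 gene lists (members tested in brackets). Right, median log2 difference of each list with all 8 libraries (filled) and without ZT24 replicate 4 (open), against the median of all genes tested (dashed). The glucocorticoid-responsive and clock lists have 9 and 8 falling members, with Per1 counted in both, and no other list has more than 3. The lists were chosen with earlier results of these data known.

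To see which of these changes accompany feeding by day as well, the difference was compared with that between ZT12 and ZT4 in DRF mice, which have eaten for the same hours in the light. In that arm, 1127 genes rose (7.33% of 15366) and 1007 fell (6.55%). Of the genes that fell late in the fed night, 125 of 446 tested, or 28%, also fell over the fed day, and 39, or 8.74%, rose. Of the genes that rose late in the fed night, 36 of 234, or 15.4%, also rose over the fed day, and 24, or 10.3%, fell. The difference between the arms was called for 838 of 15537 genes (5.39%), of which 346 were higher (2.23%) and 492 lower (3.17%) under night feeding. These counts moved by more than 1.5 times with single libraries left out, from 178 to 693 and from 267 to 777, and were highest without NRF ZT24 replicate 1.

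The difference between the arms was called for 12 of 19 clock genes and 7 of 15 glucocorticoid-responsive genes, against 5.39% of all genes. The single genes given next are the 10 with the smallest p of this difference among genes called in the fed night, so that their opposite courses are a description. Nr1d2 went from 22.4, 29.3, 27.9 and 18.5 CPM at ZT4 to 55.0, 66.0, 62.1 and 62.1 CPM at ZT12 in DRF mice, a rise of 1.31 (adjusted p = 0.000379), against its fall in NRF mice. The difference between the arms was -4.45 ± 0.27 (adjusted p = 2.04e-07). Per3 likewise rose over the fed day, from 14.2 to 21.9 CPM to 42.8 to 62.2 CPM (difference between arms -3.96 ± 0.31, adjusted p = 2.82e-06). Npas2 fell over the fed day, from 5.89, 4.64, 4.84 and 7.78 CPM to 3.95, 3.66, 3.07 and 3.13 CPM (difference between arms 3.68 ± 0.30, adjusted p = 3.42e-06).

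Fkbp5 rose over the fed day from 20.5, 24.1, 23.6 and 27.2 CPM to 50.1, 67.6, 50.1 and 75.5 CPM, by 1.30 (adjusted p = 0.000559). The difference between the arms was -3.73 ± 0.29 (adjusted p = 2.82e-06). Klf13, a Krüppel-like factor, Wee1 and Cys1, which encodes the ciliary protein cystin, fell in the fed night and rose in the fed day. Cys1 was at 4.31, 4.61, 6.06 and 4.91 CPM at ZT4 and 13.4, 13.6, 15.7 and 15.9 CPM at ZT12 in DRF mice, against 25.5, 24.9, 25.98 and 20.8 CPM and 8.17, 10.8, 7.32 and 4.34 CPM in NRF mice at ZT16 and ZT24 (difference between arms -2.99 ± 0.25, adjusted p = 3.42e-06). Klf13, Wee1 and Gm45819 had differences between arms of -1.48 ± 0.13, -2.54 ± 0.21 and -2.81 ± 0.24. Abcg2, an efflux transporter, fell by 0.45 in the fed night and rose by 0.80 in the fed day (-1.26 ± 0.12, adjusted p = 1.35e-05). Its call in the fed night was lost without ZT16 replicate 1 or 2 or ZT24 replicate 3 (adjusted p up to 0.0672, without ZT16 replicate 2). Mmp9 ran the other way, falling over the fed day from 31.5, 25.5, 29.5 and 28.7 CPM to 11.3, 13.8, 10.2 and 12.8 CPM (2.38 ± 0.21, adjusted p = 7.24e-06). In the fasted night of DRF mice, from ZT16 to ZT24, Mmp9 rose as well (0.94 ± 0.10, adjusted p = 0.000591). Its difference between the fed and the fasted night was not called (0.24 ± 0.21, adjusted p = 0.499).

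To compare the same clock hours with and without food, the difference was set against that between ZT24 and ZT16 in DRF mice, which fast at night. In that arm 659 genes rose (4.21% of 15660) and 620 fell (3.96%). Of the genes that fell late in the fed night, 38 of 447 tested, or 8.5%, also fell in the fasted night, and 79, or 17.7%, rose. Of the genes that rose late in the fed night, 17 of 235, or 7.23%, also rose in the fasted night, and 19, or 8.09%, fell. The difference between the arms was called for 1724 of 15674 genes (11%), 797 higher (5.08%) and 927 lower (5.91%) in the fed night. With single libraries left out, these counts ranged from 509 to 876 and from 669 to 973, and the higher count was lowest without NRF ZT16 replicate 1.

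The 10 genes given next were named for the smallest p of the difference from the fasted night. Of these, 7 were called falling in the fed night and called rising in the fasted night. Because that difference chose them, their opposite courses are a description. The summed adipocyte markers took the same courses, with 42607 to 46876 CPM at DRF ZT4, 31673 to 34121 CPM at DRF ZT12, 33995 to 38326 CPM at DRF ZT16 and 41240 to 52129 CPM at DRF ZT24, and their part in these differences was not tested. Dgat1 was at 232, 227, 233 and 257 CPM at DRF ZT16 and at 387, 455, 349.7 and 445 CPM at DRF ZT24, a rise of 0.78 (adjusted p = 0.00135), and the difference between the fed and the fasted night was -1.46 ± 0.13 (adjusted p = 7.30e-06). Over the fed day Dgat1 fell from 441, 376, 485 and 428 CPM to 291, 189, 208 and 242 CPM.

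Prkar2b, the regulatory subunit of protein kinase A typical of adipocytes, was at 653, 735, 782 and 526 CPM at NRF ZT16 and 355, 327, 285 and 264 CPM at NRF ZT24 (-1.12 ± 0.14, adjusted p = 0.00346). In the fasted night it went from 475, 478, 467 and 481 CPM to 832, 974, 1117 and 924 CPM (difference between arms -2.13 ± 0.18, adjusted p = 2.81e-06). Lgals12, a galectin of adipocyte lipid droplets, was at 290.4, 334, 296 and 261 CPM and 162, 174, 133 and 121 CPM in the fed night (-1.01 ± 0.13, adjusted p = 0.00346), and at 175, 171, 149.6 and 141 CPM and 319, 318, 303 and 319 CPM in the fasted night (difference between arms -1.99 ± 0.15).

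Tmem120a, a nuclear envelope protein of adipocytes, fell by 0.91 in the fed night, from 198 to 264 CPM to 110.5 to 138 CPM, and rose in the fasted night from 125 to 187 CPM to 349 to 397 CPM (-2.20 ± 0.17, adjusted p = 2.39e-06). With ZT0 mice in place of ZT24 mice its fall in the fed night was not called (-0.50 ± 0.14, adjusted p = 0.0657). Acot4, a peroxisomal acyl-CoA thioesterase, fell by 1.05 in the fed night and rose by 1.22 in the fasted night (-2.27 ± 0.20), and over the fed day it fell from 41.5 to 69.2 CPM to 7.99 to 15.4 CPM. Arxes2, an adipocyte gene with the near-identical copy Arxes1, had a difference between arms of -1.68 ± 0.14, and Negr1, a cell adhesion molecule, of -1.53 ± 0.12.

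The other 3 of these 10 genes were Klhl13, Pcsk4 and Hspd1-ps4. Klhl13, which rose in the fed night, was at 22.4 to 27.4 CPM at DRF ZT16 and 22.1 to 25.9 CPM at DRF ZT24 (1.43 ± 0.13, adjusted p = 8.20e-06), and its difference from the fed day was 1.31 ± 0.15 (adjusted p = 6.71e-05). Pcsk4, a proprotein convertase with the smallest p of the fed night, was at 38.5, 38.3, 40.1 and 33.5 CPM at NRF ZT16. At NRF ZT24 it was at 9.91, 8.03, 10.3 and 11.5 CPM (-1.82 ± 0.11, adjusted p = 0.000151). In the fasted night it went from 5.81 to 8.39 CPM to 8.56 to 12.0 CPM. That rise was not called (0.43 ± 0.14, adjusted p = 0.0802). The difference between arms was -2.26 ± 0.18 (adjusted p = 2.39e-06). Hspd1-ps4, annotated as a pseudogene of the mitochondrial chaperone Hspd1 with which it may share reads, rose from 6.02 to 9.13 CPM to 28.6 to 38.3 CPM and fell in the fasted night (2.49 ± 0.18, adjusted p = 2.39e-06).

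**Figure D5:**
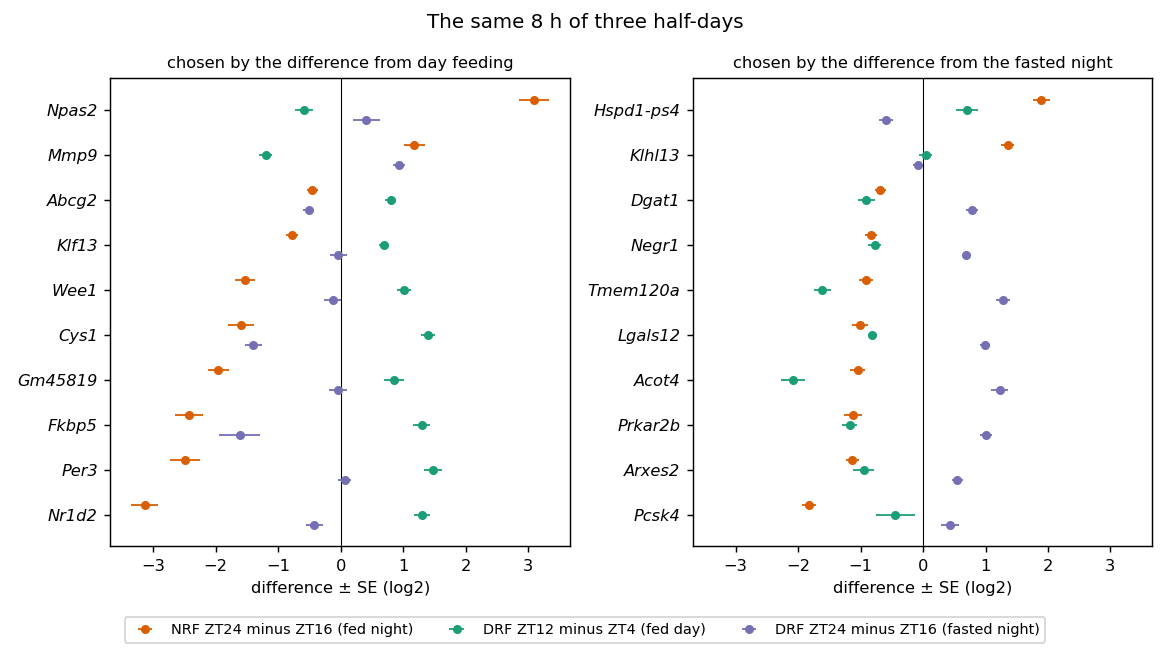
Difference ± SE on the log2(CPM + 1) scale over 8 h of the fed night (NRF ZT24 minus ZT16), the fed day (DRF ZT12 minus ZT4) and the fasted night (DRF ZT24 minus ZT16), for 10 genes chosen by the smallest p of the difference from the fed day (left) and 10 chosen by that from the fasted night (right), all called in the fed night. On the left the fed night and the fed day lie on opposite sides of 0. On the right Dgat1, Negr1, Tmem120a, Lgals12, Acot4, Prkar2b, Arxes2 and Pcsk4 are below 0 with food and above 0 without it. The rise of Pcsk4 without food was not called.

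Whole lists were also set against the fasted night. Clock genes were called for a difference from the fasted night in 12 of 19 cases, against 11% of all genes tested, and 2 fell in the fasted night itself, where 3.96% of all genes did. Glucocorticoid-responsive genes were called for a difference from the fasted night in 3 of 15 cases, against the same 11%, with 2 of 15 falling in that arm, and Fkbp5 fell there too, from 230.1, 158, 66.7 and 103 CPM to 36.9, 45.7, 56.6 and 27.8 CPM (-1.62, adjusted p = 0.0145). Sterol genes fell in the fasted night in 14 of 24 cases and rose in 1, and the difference from the fed night was called for 13 of 24. Lipogenic genes fell in the fasted night in 8 of 16 cases, and the difference was called for 7 of 16, Acly among them (2.05 ± 0.47, adjusted p = 0.0122). Nrg4, which fell in the fed night, rose in the fasted night from 64.0, 64.8, 91.8 and 67.2 CPM to 124, 167, 111 and 162 CPM (-2.21 ± 0.21, adjusted p = 8.20e-06). Adamts16 and Fbn1 rose in both nights (1.44 and 0.93 in the fasted night, adjusted p = 0.00661 and 0.013). Timp3 and Hspa1b fell in both (-0.61 and -0.87 in the fasted night, adjusted p = 0.00115 and 0.00265). For Adamts16, Fbn1, Timp3 and Hspa1b the difference between the nights was not called (adjusted p from 0.228 to 0.713). It was called for Adamts4 (1.17 ± 0.31, adjusted p = 0.0237) but not for Spon2 (adjusted p = 0.0741).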

How the data were processed

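The deposited table of VAT expression covers 25939 genes in 56 libraries and is named TPM. By its values, what the authors deposited is a score, in which log2(CPM + 1) was divided by exon length and multiplied by a factor of the library. Per the labels, libraries were made from polyA RNA with a kit that does not mark strand, and the processing notes of the submitters name HISAT2 2.0.5, featureCounts 1.5.0-p3 and mm10. The labels number the 4 libraries of a group without naming mice, so p-values measure the spread between these libraries.

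Whole reads were recovered from the steps between low values and the exon lengths of the reference (25044 genes) or lengths fitted to the values (881 genes). A recovered value was counted as whole within 0.02, and 1262084 of the 1262086 values up to 10000 reads were whole. A further 13 genes were too abundant to test, and Scd1 could not be resolved and was left out. Recovered reads were 34.4 to 41.0 M in the 12 NRF libraries of ZT16, ZT20 and ZT24. In the 16 DRF libraries of ZT4, ZT12, ZT16 and ZT24 they were 31.1 to 41.2 M. The test was run on log2(CPM + 1) of the recovered reads, with CPM per effective library size as fitted from the values, since the deposited scale is itself logarithmic. This scale understates changes of low genes.

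Genes with a mean of at least 0.5 CPM were tested with limma 3.58.1 in R 4.3.3 (intensity trend, two-sided, Benjamini-Hochberg threshold 0.05, pseudocount 1). Both differences between arms are interaction contrasts over 16 libraries. Tables were made in Python 3.11.15. On simulated data for the main comparison (15563 genes), 62 of 98 genes changed by 1.5-fold and 95 of 99 changed by 2-fold were recovered, with 6 others called. For the difference from day feeding the numbers were 10 of 98 and 78 of 99, and for the fasted night 17 of 99 and 79 of 99. The simulated counts had the same spread setting for every gene and no library that stood apart. They therefore do not give the recovery of genes that spread widely between libraries, such as the lipogenic genes.

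Named genes are the 10 largest rises and 10 largest falls among called protein-coding genes with a mean of at least 5 CPM, no overlap between groups, a call without ZT24 replicate 4 and no place among liver markers, up to 4 called members of each list by adjusted p, list members of a defining role, and the 10 genes with the smallest p of each interaction that were also called in the main comparison. Genes of a defining role, and Cidec, Hbb-bs and the called clock and glucocorticoid members beyond 4 per list, were chosen after their values were seen. The comparison and the lists were chosen with earlier results of these data known. Alternatives covered the filter, pseudocount, scaling, deposited values, all NRF libraries, replicate block, voom and single libraries left out. Some genes of the lists are not reported here by name.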

Additional observations from a re-analysis of the deposited data

Results flagged for a closer look

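In groups of 4 libraries, 17 of 234 tested sets of values had 1 library standing apart by Dixon's criterion, which chance gives for about 1 in 20 groups. ZT24 replicate 4 stood apart in the sums of liver markers (1839 CPM) and skeletal muscle markers (437 CPM), and was low for Fkbp5 (16.6 CPM against 19.7 to 20.1) and Negr1 (37.8 CPM against 48.4 to 50.4). ZT24 replicate 2 was high for Usp2 (20.1 CPM against 9.15 to 9.66) and Pnpla2 (2089.9 CPM against 1800 to 1836). ZT24 replicate 1 was high for Timp3 (159 CPM against 141 in each of the others) and low for Srebf1 (488 CPM against 892 to 920.1), Hk2 (122 CPM against 390.0 to 480.3) and Hspa5 (426 CPM against 508 to 511).

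ZT16 replicate 3 was high for Irs2 (54.3 CPM against 25.1 to 27.5), Pdk4 (111 CPM against 39.9 to 45.1), Col1a1 (460.4 CPM against 275 to 285) and the sum of adipose progenitor markers (2810.2 CPM against 2189 to 2257). It was low for Bhlhe40 (33.0 CPM against 173 to 226) and Hsp90aa1 (299.7 CPM against 389.7 to 394.9). ZT16 replicate 4 was low for Arxes2 (107 CPM against 125 to 126).

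A difference between night and day feeding was found by a limma interaction for Nr1d2 (-4.45), Per3 (-3.96), Fkbp5 (-3.73), Npas2 (3.68), Cys1 (-2.99), Gm45819 (-2.81), Wee1 (-2.54), Mmp9 (2.38), Klf13 (-1.48) and Abcg2 (-1.26), all on the log2 scale. A difference between the fed and the fasted night was found for Hspd1-ps4 (2.49), Acot4 (-2.27), Pcsk4 (-2.26), Tmem120a (-2.20), Prkar2b (-2.13), Lgals12 (-1.99), Arxes2 (-1.68), Negr1 (-1.53), Dgat1 (-1.46) and Klhl13 (1.43).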

How the results depend on the processing

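No named gene changed direction with a call under the alternatives that were run. Of 62 named genes called, 36 kept their call under every alternative and 26 lost it under at least 1, and 4 named genes that were not called passed under at least 1. The counts of 235 rising and 449 falling genes were 127 and 245 without a filter on low values (25808 genes tested), 90 and 162 on the log2 of the deposited value plus 1, and 543 and 700 when all 28 NRF libraries shared 1 estimate of the spread. With ZT0 mice in place of ZT24 mice, 412 genes rose. Of the 62 named calls, 24 were lost on the deposited scale, 12 without a filter, 11 with ZT0 mice and 7 with the replicate block. The causes of these shifts were not tested, beyond the number of genes or libraries that the settings bring in.

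With single libraries left out, rising genes ranged from 53 to 226 and falling genes from 137 to 437. The libraries whose removal lowered the counts by over 1.5 times were ZT16 replicate 1 (53 and 162), ZT16 replicate 2 (57 and 137), ZT16 replicate 3 (117 and 234) and ZT24 replicate 3 (61 and 158), and 14 to 18 of the 62 named calls were lost without each of them, against 3 to 7 without each of the other 4. Higher and lower genes in the difference from day feeding ranged from 178 to 693 and from 267 to 777. The libraries that moved these by over 1.5 times were DRF ZT4 replicates 2 (229 higher), 3 (178 and 269) and 4 (201 and 295), NRF ZT16 replicates 1 (190 and 288) and 2 (217 and 311), and NRF ZT24 replicates 1 (693 and 777) and 3 (193 and 267). In the difference from the fasted night they ranged from 509 to 876 and from 669 to 973, with the higher count moved by over 1.5 times without DRF ZT16 replicate 3 (510), DRF ZT24 replicate 2 (517), NRF ZT16 replicate 1 (509) or NRF ZT24 replicate 3 (526).

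The replicate numbers did not pair the libraries. Deviations of same-numbered ZT16 and ZT24 libraries from their group means correlated at 0.05, 0.01, -0.05 and 0.28 across 15647 genes, and 1 of 4 correlated best with its own number. With the replicate number as a block, 195 genes rose and 394 fell, the counts were 312 and 450 for the difference from day feeding and 941 and 1011 for that from the fasted night. Scaling by total reads and limma voom were chosen after seeing the data. limma voom called 219 rising and 418 falling genes. edgeR and DESeq2 on the recovered reads were planned and not run, and limma voom on the same reads was run in their place.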

Other observations

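NRF mice at ZT24 were also set against NRF mice at ZT0, the same phase of the light-dark cycle a comparison chosen after seeing the data. In limma 0 of 15626 genes were called, 1214 had an unadjusted p under 0.05, where 781.3 would be expected if no gene differed, and limma voom called 0. Both groups were compared with the same ZT16 libraries, so that the counts of 235 rising and 449 falling genes for ZT24 and of 412 and 563 for ZT0 are not independent.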
